A study of Homo sapiens with 6 samples.

Results

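The metallothioneins are a family of small cysteine-rich proteins that bind zinc and copper. The 10 genes described here were those whose symbol fits the family's pattern (MT followed by a digit from 1 to 4 and, for some, a letter), with the pseudogene MT1L left aside, out of 14884 named genes on the array. Each of the 10 had a single annotated probe set, so the step in which probe sets are chosen by brightness over all 6 arrays decided nothing here. The eleventh protein-coding gene of the pattern, MT1A, was not analysed here. Expression was measured on 3 arrays of siATF4 cells and 3 arrays of siCTRL cells. Both groups were cells of MOLM14, a line established from human acute myeloid leukaemia of monocytic type, which carries a KMT2A-MLLT3 fusion and an internal tandem duplication of FLT3. The siATF4 cells received siRNA against the mRNA of ATF4, the transcription factor of the integrated stress response, and the siCTRL cells a non-targeting siRNA pool. Both siRNAs were electroporated at 70 nM into cells grown in RPMI medium with serum, and the labels state no time of harvest. The labels call the 3 samples of a group technical replicates of 1 cell line, so a p-value covers the spread between those samples alone, which may be technical. Values are on a log2 scale, and a difference is siATF4 minus siCTRL.

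Metallothioneins hold metal ions in clusters of cysteine thiolates, buffer zinc, take up surplus copper and cadmium, and scavenge oxidants. Their genes lie in 1 cluster on human chromosome 16. Most are switched on by metals through MTF1, a zinc-finger transcription factor that binds metal response elements in their promoters, and several also respond to glucocorticoids and to oxidative stress. MT2A and the MT1 genes are made in many tissues, whereas MT3 is known from brain and MT4 from stratified squamous epithelium. The MT1 genes are close copies of one another, and cross-hybridisation between their probe sets was not tested, so the value of any single MT1 gene is uncertain to that extent. The probe sets differ in response, so levels of different genes are not compared as amounts of transcript, and bright or dim describes only the signal of a probe set beside the median over all genes.

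Promoters of 5 of the 10 genes were matched in the RefSeq table (GRCh38.p14), each running from 250 bases before to 50 bases after the gene's start. The core of the metal response element was searched as TGCACNC or TGCGCNC on both strands. It was found 8 times in the MT2A promoter, 8 times in that of MT1H, 4 times in that of MT1X, and 3 times each in those of MT1B and MT4. Of all 35116 promoters of this length 29.6% held at least 1 match, 2.3% held 3 or more and 0.0199% held 8 or more. The promoters of 4 genes are shown because their genes differ in the measurements that follow: MT2A and MT4 were lower on every siATF4 array, MT1X was bright and kept almost the same gap in each replicate number, and MT1H was dim, with as many matches in its promoter as MT2A. Capitals mark the matches, none of which overlapped another.
MT2A, chr16:56608334-56608633, + strand: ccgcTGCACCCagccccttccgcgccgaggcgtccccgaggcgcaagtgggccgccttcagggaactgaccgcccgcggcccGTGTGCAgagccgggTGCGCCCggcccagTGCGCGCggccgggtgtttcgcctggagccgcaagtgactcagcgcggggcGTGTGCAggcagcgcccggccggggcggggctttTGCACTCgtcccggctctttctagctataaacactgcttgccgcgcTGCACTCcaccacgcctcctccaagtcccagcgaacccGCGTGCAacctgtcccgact
MT1X, chr16:56682220-56682519, + strand: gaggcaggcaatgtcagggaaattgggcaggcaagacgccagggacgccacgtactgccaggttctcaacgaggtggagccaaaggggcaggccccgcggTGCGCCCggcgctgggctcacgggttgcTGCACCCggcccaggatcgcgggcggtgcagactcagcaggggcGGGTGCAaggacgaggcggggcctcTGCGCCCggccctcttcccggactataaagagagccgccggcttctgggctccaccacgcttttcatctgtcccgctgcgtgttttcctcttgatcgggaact
MT4, chr16:56564823-56565122, + strand: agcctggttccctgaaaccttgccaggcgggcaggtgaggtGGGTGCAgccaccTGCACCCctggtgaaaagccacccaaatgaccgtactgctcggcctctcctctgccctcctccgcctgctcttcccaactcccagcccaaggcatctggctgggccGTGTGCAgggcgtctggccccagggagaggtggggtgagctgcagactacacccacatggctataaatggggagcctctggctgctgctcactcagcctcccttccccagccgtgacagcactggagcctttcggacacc
MT1H, chr16:56669564-56669863, + strand: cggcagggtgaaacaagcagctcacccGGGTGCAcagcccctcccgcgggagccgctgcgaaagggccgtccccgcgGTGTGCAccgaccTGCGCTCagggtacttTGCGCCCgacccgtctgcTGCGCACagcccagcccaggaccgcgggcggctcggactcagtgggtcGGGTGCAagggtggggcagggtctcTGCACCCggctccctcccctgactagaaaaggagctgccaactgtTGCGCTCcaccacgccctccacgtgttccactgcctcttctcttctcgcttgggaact

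No match to TGATGNAA, the C/EBP-ATF composite core of amino acid response elements, was found on either strand of these 4 promoters or of the MT1B promoter. Of all promoters 3.62% held this core. The core of the antioxidant response element, TGACNNNGC, was found once each in the MT2A, MT1X and MT1B promoters and not in those of MT1H and MT4, and 13.3% of all promoters held it. The letters TATAAA were found once each in the MT2A, MT1X, MT4 and MT1B promoters and not in that of MT1H, against 11.5% of all promoters. A match is a stretch of letters and was not tested for binding.

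Array medians over all features lay between 3.88 and 3.96 and lower quartiles between 3.38 and 3.45. ATF4 read 7.72, 7.88 and 8.14 in siATF4 cells, against 8.67, 8.64 and 8.85 in siCTRL cells, a difference of -0.80 (SE 0.14, adjusted limma p 1.00). Of 13 markers fixed for a monocytic myeloid leukaemia line 9 had a named feature, among them LYZ with levels from 8.33 to 10.87 and FLT3 with levels from 8.19 to 9.67, whereas CD14 lay between 3.22 and 4.18. The mean level of the 9 was 7.84, 7.68 and 6.91 in siATF4 cells, against 7.91, 7.61 and 6.89 in siCTRL cells, lowest at replicate 3 in both. The granule enzyme MPO, also on this list, was instead highest at replicate 3 in both groups, at 10.45 and 10.17. The epithelial marker EPCAM lay between 3.86 and 4.08 and the keratin gene KRT18 between 6.11 and 7.40. Of the T and NK cell markers, NKG7 lay between 6.61 and 7.62, CD8A between 4.01 and 4.20 and GNLY between 3.19 and 3.69. The siATF4 replicate 1 array stood apart. MPO read 5.58 there, against 8.45 and 10.45 on the other siATF4 arrays and 9.11 to 10.17 on the siCTRL arrays. Some other markers of the same list were instead highest there. CSF1R read 8.18 there, against 5.05 to 6.57 on the other 5 arrays. CSF3R read 7.40 there, against 4.42 to 6.42, and CD68 read 11.18, against 9.27 to 10.27. The B-lineage factor PAX5 read 3.76 there and 5.28 to 6.12 on the other 5 arrays. The heat shock gene HSPA1A read 9.68 there and 7.60 to 8.17 on the other 5 arrays.

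Of the 10 metallothionein genes 9 had a lower mean with siATF4 and 1, MT1E, a higher mean, while 46.2% of all genes had a lower mean. The differences ran from -0.87 for MT2A to 0.18 for MT1E. Their median was -0.17, against 0.01 over all genes. In a bulk sample, a lower level per cell and fewer cells that make a transcript cannot be told apart. For 3 genes, MT2A, MT1F and MT4, every siATF4 array lay below every siCTRL array, and for 0 the groups stood apart in the other direction. Of all genes 2.59% lay below in this way. No metallothionein passed the adjusted threshold of 0.05 in limma, each with an adjusted p of 1.00 over all genes, and the share of all genes that passed was 0%. At an unadjusted p below 0.05 in limma there were 2 members, MT1F and MT4, both lower, and 0.531% of all genes were lower at that level (79 genes, of 218 in both directions). This count of members depended on the setting and ranged from 1 to 4. The unadjusted limma p of MT4 was 0.0644 with a trend and robust prior, 0.0528 without siATF4 replicate 1 and 0.0535 without siCTRL replicate 2.

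Arrays of the 2 groups share replicate numbers 1 to 3, and the deviations of same-numbered arrays correlated across genes at 0.20, 0.40 and 0.62. The match was not exclusive, since siATF4 replicate 2 correlated with siCTRL replicate 1 at 0.48, above the 0.20 and 0.40 of numbers 1 and 2. The pairing of numbers 1 and 2 is thus less certain than that of number 3. Comparisons within replicate numbers rest on this pairing by number. Of the 10 genes 5 were lower with siATF4 in every replicate number, namely MT2A, MT1F, MT4, MT1H and MT1X, and 9.20% of all genes were. With the replicate number as a block, 4 members had an unadjusted p below 0.05 in limma, MT2A, MT1F, MT4 and MT1H, all lower, against 0.934% of all genes. None passed the adjustment, and again 0% of all genes did. The count of members with a lower mean depended on single arrays: it was 4 without siCTRL replicate 3 and 6 without siATF4 replicate 2, and the median difference turned to 0.03 without siCTRL replicate 3.

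**Figure D1:**
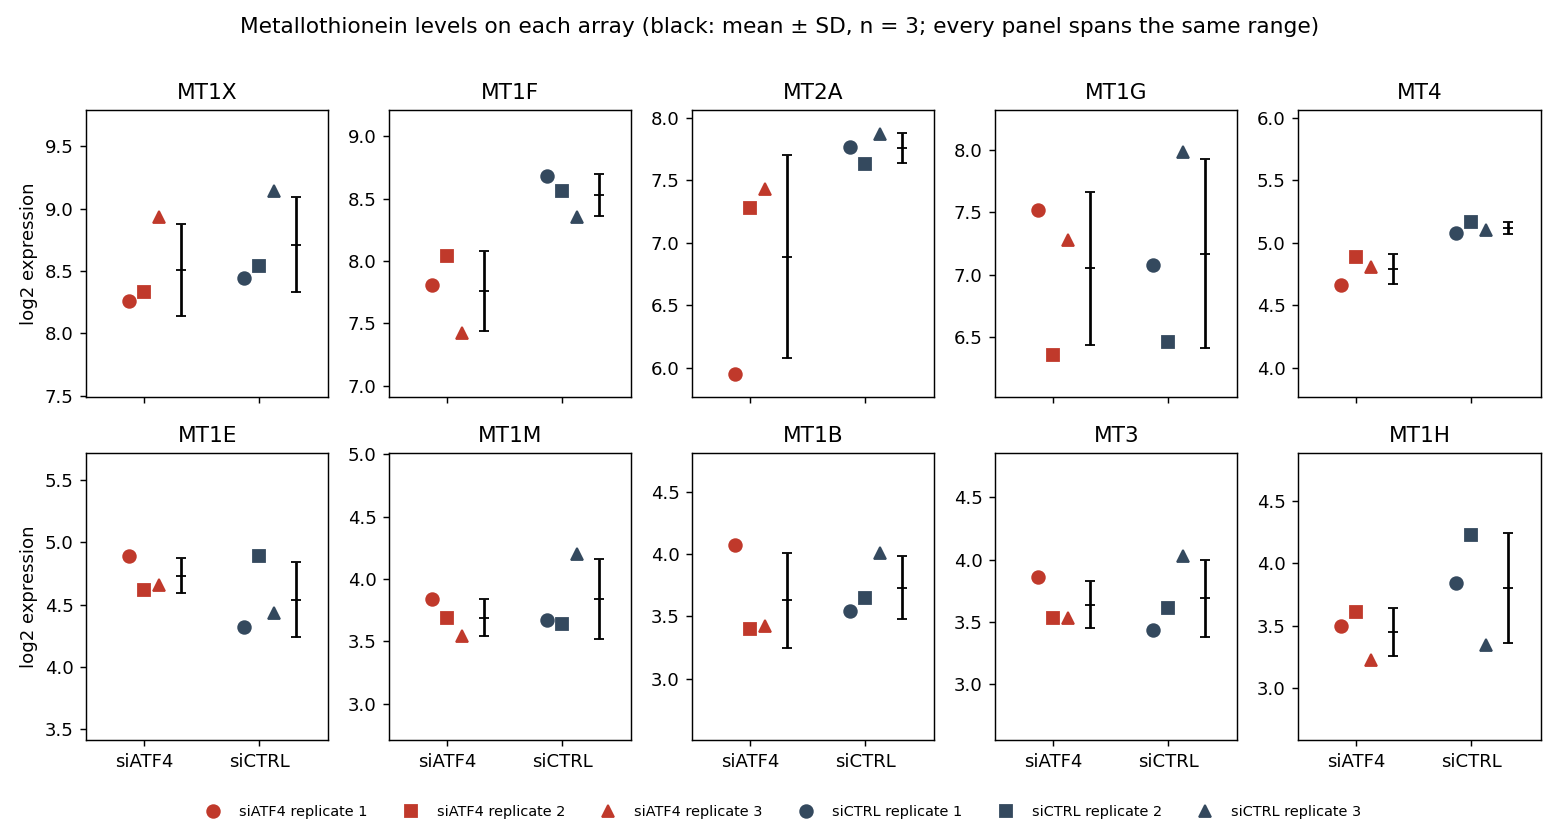
Log2 expression of the 10 metallothionein genes on each array, siATF4 in red and siCTRL in dark blue, with 1 symbol per replicate number and the mean ± SD (n = 3) in black. The groups stand apart for MT1F, MT2A and MT4, and siATF4 replicate 1 lies far below the other arrays for MT2A.

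MT2A is the single human metallothionein of its class and the form commonly found in most cell types. It read 5.95, 7.28 and 7.43 in siATF4 cells, against 7.77, 7.63 and 7.87 in siCTRL cells. All siATF4 arrays were below all siCTRL arrays, and most of the gap came from siATF4 replicate 1. The means were 6.89 ± 0.81 with siATF4 and 7.76 ± 0.12 with siCTRL (SD, n = 3 each), a difference of -0.87 (SE 0.38), which corresponds to 54.7% of the control level. Only 57 genes (0.383%) had a difference this low. Limma gave an unadjusted p of 0.0552 and an adjusted p of 1.00, and a two-sided exact permutation test gave p = 0.1, its smallest possible value with 3 arrays a group. Within replicate numbers the differences were -1.82, -0.34 and -0.45. Without siATF4 replicate 1 the difference was -0.40. On that array the interferon-induced gene IFITM1 was low as well, at 4.44 against 7.86 to 8.29 on the other 5 arrays. The part of that array's other differences in the MT2A value was not tested.

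MT1F, a bright member of the MT1 group, was lower with siATF4 in each replicate number. It read 7.81, 8.04 and 7.42 in siATF4 cells, against 8.68, 8.56 and 8.35 in siCTRL cells. The groups did not overlap, and replicate 3 was the lowest array in both. The means were 7.76 ± 0.32 with siATF4 and 8.53 ± 0.17 with siCTRL (SD, n = 3 each), a difference of -0.77 (SE 0.18), or 58.6% of the control level. Limma gave an unadjusted p of 0.00444 and an adjusted p of 1.00, with a two-sided exact permutation p of 0.1. The differences within replicate numbers were -0.87, -0.51 and -0.93. With the replicate block the SE was 0.13 and the unadjusted limma p 0.00113. Leaving out each array in turn gave -0.91 to -0.60. In all, 77 genes (0.517%) had a difference as low as this.

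MT4 was the third gene without overlap, at a level near that of the median gene. It read 4.66, 4.89 and 4.81 in siATF4 cells, against 5.08, 5.17 and 5.10 in siCTRL cells. All siATF4 arrays were lower, by a small step compared with MT2A and MT1F. The means were 4.79 ± 0.12 with siATF4 and 5.12 ± 0.05 with siCTRL (SD, n = 3 each), a difference of -0.33 (SE 0.11). Limma gave an unadjusted p of 0.0185 and an adjusted p of 1.00, with a two-sided exact permutation p of 0.1. Within replicate numbers the differences were -0.42, -0.28 and -0.30, and leaving out each array in turn gave -0.38 to -0.27. A difference this low was seen for 448 genes (3.01%). The median level over all genes was 4.47 and MT4 averaged 4.95, so its signal is less certain than that of the bright members, and background per probe set was not analysed here.

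MT1X, another bright member of the MT1 group, differed more between replicate numbers than between groups. It read 8.26, 8.33 and 8.93 in siATF4 cells, against 8.44, 8.54 and 9.14 in siCTRL cells. Replicate 3 was the highest array in both groups, so the groups overlapped. The means were 8.51 ± 0.37 with siATF4 and 8.71 ± 0.38 with siCTRL (SD, n = 3 each), a difference of -0.20 (SE 0.25), with an unadjusted limma p of 0.46 and an adjusted p of 1.00. Within numbers the differences were -0.18, -0.21 and -0.21, an SD of 0.02. With the replicate block the SE was 0.10 and the unadjusted limma p 0.106. The unpaired difference turned to 0.02 without siCTRL replicate 3.

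MT1G, also of the MT1 group, varied more within groups than the other 9 members, with a pooled SD of 0.69. It read 7.52, 6.36 and 7.28 in siATF4 cells, against 7.08, 6.46 and 7.98 in siCTRL cells. Replicate 2 was the lowest array in both groups. The means were 7.05 ± 0.61 with siATF4 and 7.17 ± 0.76 with siCTRL (SD, n = 3 each), a difference of -0.12 (SE 0.44), less than the SD of either group. The differences within numbers were 0.44, -0.10 and -0.70 and so ran both ways. The difference ranged from -0.47 without siCTRL replicate 2 to 0.28 without siCTRL replicate 3. HMOX1, the heme oxygenase gene that oxidants and metals induce, also had its lowest array of each group at replicate 2, reading 5.97, 5.09 and 7.21 in siATF4 cells, against 5.21, 4.27 and 7.99 in siCTRL cells. Both genes were highest at replicate 3 in siCTRL cells. In siATF4 cells MT1G was highest at replicate 1 and HMOX1 at replicate 3. A link between MT1G and HMOX1 was not tested.

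MT1E, a member of the MT1 group with a level near that of the median gene, had the higher siATF4 mean. It read 4.89, 4.62 and 4.66 in siATF4 cells, against 4.32, 4.89 and 4.43 in siCTRL cells. The groups overlapped, since siCTRL replicate 2 reached the level of siATF4 replicate 1. The means were 4.73 ± 0.14 with siATF4 and 4.54 ± 0.30 with siCTRL (SD, n = 3 each), a difference of 0.18 (SE 0.18), with an unadjusted limma p of 0.337 and an adjusted p of 1.00. It was 0.57, -0.27 and 0.24 within replicate numbers. The difference was 0.07 without siCTRL replicate 1 and 0.35 without siCTRL replicate 2, where the unadjusted limma p was 0.0444 and the adjusted p 1.00.

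The remaining 4 genes, MT1H, MT1M, MT1B and MT3, were dimmer than the median gene, with levels between 3.23 and 4.23 over all arrays. Their mean levels, 3.63 to 3.76, lay between the lower quartile and the median of all features. MT1H read 3.50, 3.61 and 3.23 in siATF4 cells, against 3.84, 4.23 and 3.35 in siCTRL cells. Each siATF4 array lay below the siCTRL array of its number, and replicate 3 was lowest in both groups. The difference was -0.35 (SE 0.23, unadjusted limma p 0.173) and its unadjusted p was 0.0406 with the replicate block (SE 0.13), with an adjusted p of 1.00 in both fits. It was -0.14 without siCTRL replicate 2 and -0.58 without siCTRL replicate 3. MT1M read 3.84, 3.69 and 3.54 in siATF4 cells, against 3.67, 3.64 and 4.20 in siCTRL cells, a difference of -0.14 (SE 0.18). MT1B read 4.07, 3.40 and 3.42 in siATF4 cells, against 3.54, 3.65 and 4.01 in siCTRL cells, a difference of -0.10 (SE 0.22). MT3, a growth inhibitory factor of neurons, read 3.86, 3.53 and 3.53 in siATF4 cells, against 3.44, 3.61 and 4.03 in siCTRL cells, a difference of -0.05 (SE 0.18). In these 3 genes the groups overlapped, with siATF4 replicate 1 the highest siATF4 array and siCTRL replicate 3 the highest siCTRL array. Without siCTRL replicate 3 the differences of MT1M, MT1B and MT3 were 0.04, 0.04 and 0.12.

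**Figure D2:**
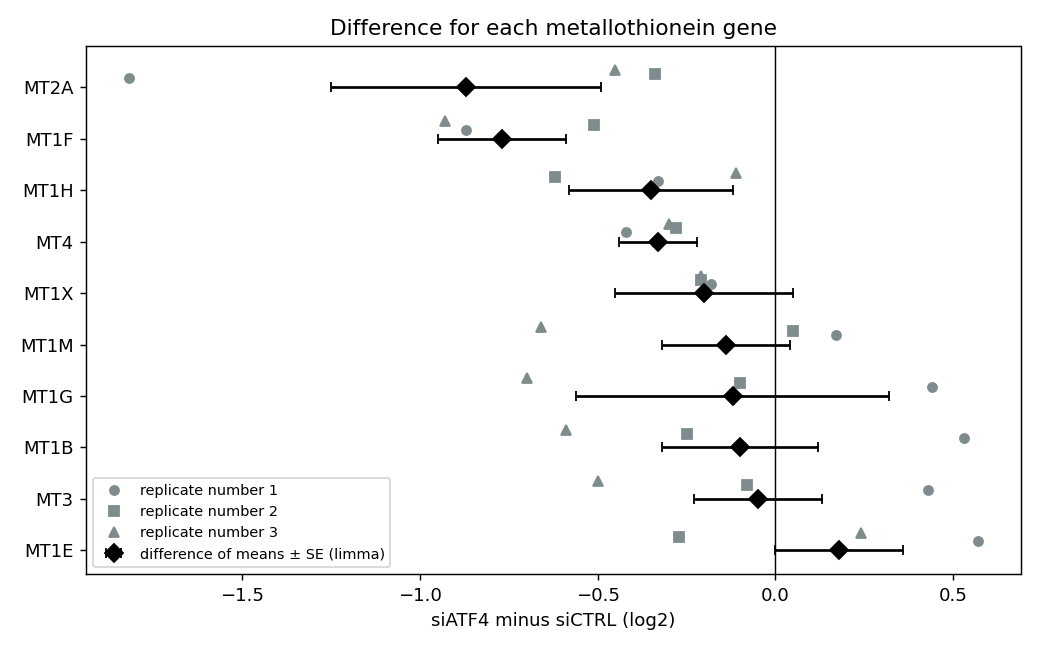
The log2 difference (siATF4 minus siCTRL) of each metallothionein gene, as the difference of means ± SE from limma (black diamonds) and within each replicate number (grey symbols). MT2A, MT1F, MT1H, MT4 and MT1X are below 0 in all 3 numbers, with MT1X almost the same in each.

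The cluster was also set beside its neighbours on chromosome 16, taking the 5 nearest genes with a named feature on each side in the order of the gene table. The 10 neighbours differed by -0.34 for CPNE2, a calcium-dependent membrane-binding protein, to 0.44 for BBS2, a subunit of the BBSome of cilia. None passed the adjusted limma threshold, each with an adjusted p of 1.00. OGFOD1, a ribosomal prolyl hydroxylase, was the 1 neighbour whose groups did not overlap. Every siATF4 array was lower, as for 2.59% of all genes. It read 8.95, 8.94 and 9.04 in siATF4 cells, against 9.13, 9.25 and 9.20 in siCTRL cells, a difference of -0.22 (SE 0.10). BBS2, the gene next to MT4, read 7.39, 6.56 and 6.52 in siATF4 cells, against 6.54, 6.32 and 6.29 in siCTRL cells, and its difference was 0.16 without siATF4 replicate 1. On the far side NUP93, a nuclear pore protein next to MT1X, differed by 0.19 (SE 0.15), or 0.09 without siATF4 replicate 1. The pseudogene MT1L, inside the cluster, read 3.01, 3.21 and 3.38 in siATF4 cells, against 3.20, 3.36 and 3.13 in siCTRL cells, a difference of -0.03 (SE 0.14).

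**Figure D3:**
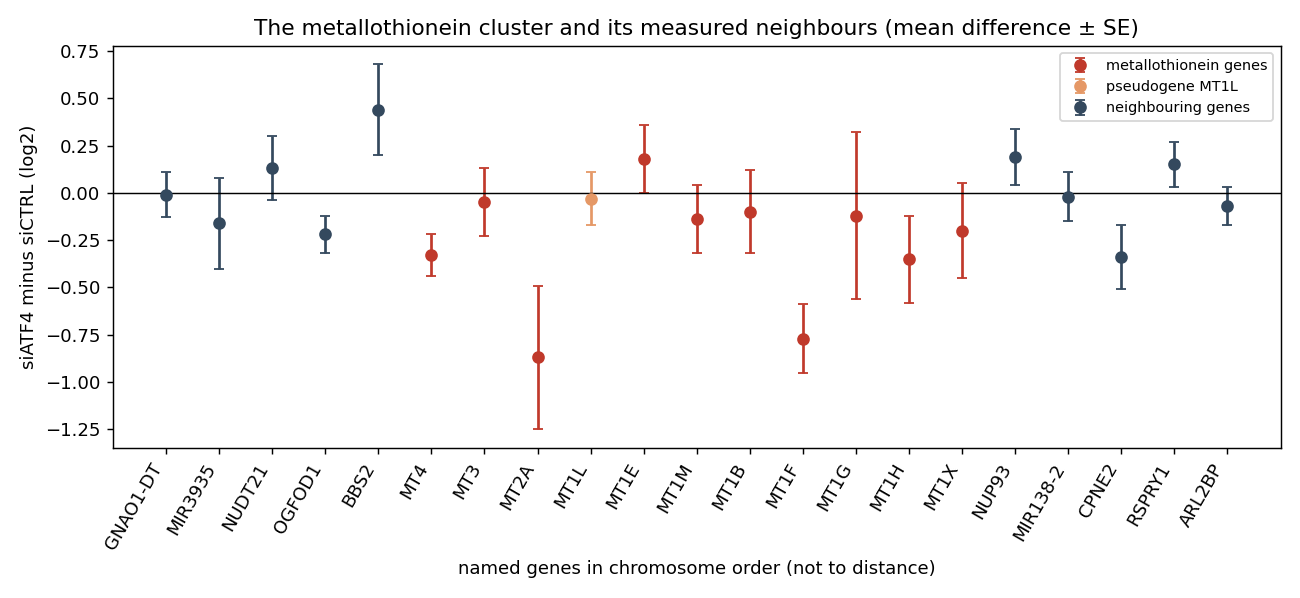
The log2 difference (siATF4 minus siCTRL, mean ± SE) of the metallothionein genes (red), the pseudogene MT1L (orange) and the 5 nearest genes with a named feature on each side (dark blue), in chromosome order and not to distance. MT2A and MT1F are the lowest points, with MT1E, between them in order, above 0.

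MTF1, the metal-sensing activator of the family, had a slightly higher mean with siATF4. It read 8.22, 8.41 and 8.06 in siATF4 cells, against 8.35, 7.86 and 8.12 in siCTRL cells, and the groups overlapped. Its difference was 0.12 (SE 0.16, adjusted limma p 1.00) and close to 0 without siCTRL replicate 2. Only 4 of 29 genes fixed for zinc transport and sensing had a named feature here, with a median difference of 0.05, and the others were not analysed. Their largest difference after MTF1 was 0.07 for ZNG1A, a zinc chaperone GTPase with near-identical copies (-0.16 to 0.25 with each array left out), and TMEM163, a zinc exporter, differed by -0.04. Of 12 measured copper-handling genes 10 were higher and 2 lower, with a median of 0.06, while 46.2% of all genes were lower. Among these SCO2, an assembly factor of cytochrome c oxidase, differed by -0.25 (-0.02 without siCTRL replicate 1), COX17, a copper chaperone, by 0.20 (0.06 without siATF4 replicate 1) and XIAP, an inhibitor of apoptosis that binds copper, by 0.16 (0.06 without siCTRL replicate 2).

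The other gene groups tied to metallothionein induction gave 0 genes past the adjusted limma threshold. For the counts of direction, 46.2% of all genes had a lower siATF4 mean. Of 10 metal-responsive genes outside the family 8 were higher and 2 lower, with a median of 0.15 that was 0.00 without siATF4 replicate 1. HSPA1A differed by 0.55 and its near-identical copy HSPA1B by 0.27, and both were below 0 without that array, at -0.08 and -0.12. Of 9 heat shock genes 8 were higher, with a median of 0.17 (0.01 without siATF4 replicate 1). HSPA1A and HSPA1B are counted in both of these lists. HSPA1L, a further member of the heat shock group, differed by 0.21, or 0.13 without siATF4 replicate 1. Glucocorticoid-induced genes were split evenly, 6 lower and 6 higher, with ERRFI1, a feedback inhibitor of EGFR, at -0.53 (-0.18 without siATF4 replicate 1), the thrombomodulin gene THBD at -0.25 (-0.66 to -0.04 with each array left out) and CRISPLD2 at 0.24 (0.09 without siATF4 replicate 1). Of 13 NRF2 and oxidative stress genes 10 were lower and 3 higher, with a median of -0.11. HMOX1 and another gene of this list are also counted among the metal-responsive genes. KEAP1, the inhibitor of NRF2, differed by -0.35 (SE 0.15), HMOX1 by 0.27 (SE 0.98, -0.51 to 1.35 with each array left out) and the catalase gene CAT by 0.30, or -0.01 without siATF4 replicate 1. All 18 measured type I interferon genes had a lower siATF4 mean, against 46.2% of all genes, with a median of -0.56. Their largest differences were -1.31 for IFITM1 (-0.13 without siATF4 replicate 1), -1.06 for IFIT1 and -0.94 for IFI44L, the last 2 at -0.39 and -0.28 without siCTRL replicate 1. For these genes the gap lay mostly in replicate number 1. Within numbers 1 to 3 it was -3.85, -0.02 and -0.05 for IFITM1 and -3.17, 0.03 and -0.03 for IFIT1. For IFI44L it was -2.85, -0.12 and 0.16. The median of the list was -0.14 without siCTRL replicate 1, and between 12 and 18 of these genes were lower as each array was left out.

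**Figure D4:**
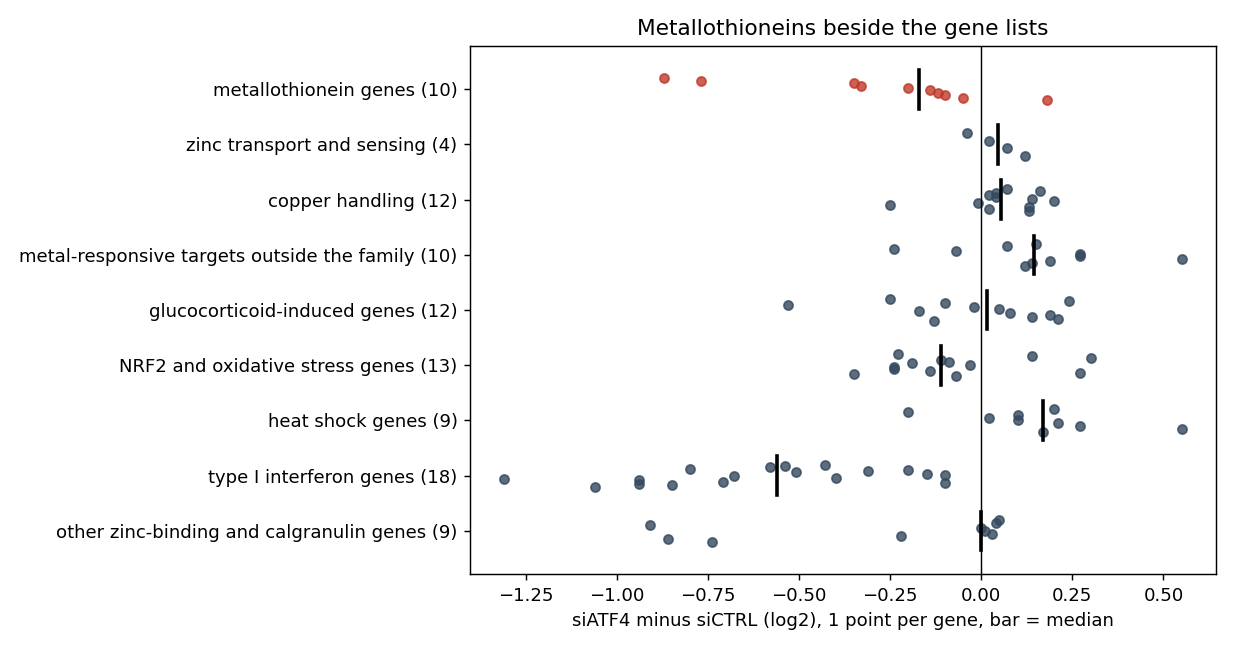
Log2 differences (siATF4 minus siCTRL) of the metallothionein genes (red) and of the genes in each list (dark blue), 1 point per gene, with the number of genes in brackets and the median as a black bar. The metallothionein median lies at -0.17, that of the metal-responsive genes outside the family at 0.15 and that of the interferon genes at -0.56.

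To find the genes whose pattern over the 6 arrays was most like that of the family, each member's levels were centred on their own mean and averaged. This family profile was -0.11, -0.17 and -0.13 in siATF4 cells, against 0.03, 0.09 and 0.29 in siCTRL cells. As an average it was thus higher on every siCTRL array, though only with MT2A included, and highest on siCTRL replicate 3. The members did not all share this pattern. MT1F and MT1H had their lowest siCTRL value on siCTRL replicate 3, at 8.35 and 3.35. MT2A read 5.95 on siATF4 replicate 1, against 7.28 to 7.87 on the other 5 arrays. The separation of the groups in the profile rests on this value of MT2A. Averaged over the other members, siATF4 replicate 1 lay no lower than siCTRL replicate 1. On siATF4 replicate 1 MT3, MT1E, MT1M, MT1B and MT1G lay above their own means, and MT4, MT1F, MT1H and MT1X below. Of 2107 protein-coding genes outside the family that were brighter than the median gene and varied by an SD of at least 0.3, the 5 with the highest Pearson correlation were PSAT1 (0.991), STC2 (0.964), AARS1 (0.961), CBS (0.956) and SHMT2 (0.949). These correlations are over 6 arrays that fall into 2 groups, share the group difference and were ranked among many genes, so they are a description. PSAT1 is the phosphoserine aminotransferase of serine synthesis and read 8.75, 8.64 and 8.75 in siATF4 cells, against 9.28, 9.44 and 10.48 in siCTRL cells. STC2, a secreted glycoprotein, read 4.35, 4.63 and 4.51 in siATF4 cells, against 5.09, 5.29 and 5.87 in siCTRL cells. For AARS1, the alanyl-tRNA synthetase, CBS, the cystathionine beta-synthase, and SHMT2, the mitochondrial serine hydroxymethyltransferase, the differences were -0.69 (SE 0.21), -0.57 (SE 0.18) and -0.57 (SE 0.15). In all 5 genes, as in the family profile, siCTRL replicate 3 was the highest array and the groups did not overlap. The genes were picked for their likeness to this profile, so these shared features are no separate result.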

How the data were processed

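Expression was measured on 6 whole-transcript arrays, 3 siATF4 and 3 siCTRL, with 100 ng of total RNA labelled per array, per the labels' protocols. The authors deposited 1 value per array for 53617 features, taken here as log2 because of their range (1.91 to 14.24). The submitters' processing notes name Partek. How background was corrected and arrays were normalized, the log base and the version of that tool are not given in the sources used here. No column was left unmapped.

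The array's annotation named 16098 features, and all their gene identifiers matched the GRCh38.p14 gene table, which changed 0 symbols and also gave the order of genes. The brightest feature stood for each of 779 genes with several. A linear model with a group term alone was fitted to all 14884 genes (limma 3.58.1, R 4.3.3), and p-values were moderated with eBayes and adjusted by Benjamini-Hochberg over all genes, with a threshold of 0.05. SE is limma's moderated standard error. With 3 arrays a group the median SE was 0.15, which sets the precision.

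Same-numbered arrays correlated in their deviations from the group means at 0.20, 0.40 and 0.62 over genes for numbers 1, 2 and 3, each over the limit of 0.1, so a fit with the number as a block was added on the basis of these values. siATF4 replicate 2 also correlated with siCTRL replicate 1, at 0.48, more than with siCTRL replicate 2. The genes named were all members, ATF4, the 3 largest differences of each gene list apart from the cell type markers, MTF1 and the genes most like the family. Of the neighbours only some are named. Those, and the markers and values singled out to describe an array, were chosen after their values were seen. The members and gene lists were chosen with earlier results of these data known.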

Additional observations from a re-analysis of the deposited data

How the results depend on the processing

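In limma 0 genes passed the adjusted threshold under any alternative run, with 152 to 464 genes of the 14884 at an unadjusted p below 0.05 (218 as reported, 464 with the replicate block, 352 with array weights, 395 without siATF4 replicate 2, 342 without siATF4 replicate 3, 377 leaving out siCTRL replicate 3). The same count was 121 of 9972 with the dimmest genes dropped and 1028 of 53617 when all features were tested. The median difference over the 10 metallothionein genes was -0.17 as reported and with the replicate block, -0.19 with quantile normalization, -0.21 with array weights, and from -0.29 to 0.03 with each array left out, below 0 except without siCTRL replicate 3. Under quantile normalization and equal array medians the siATF4 arrays of MT2A, MT1F and MT4 again lay below all siCTRL arrays, a comparison chosen after seeing the data. Leaving out an array cannot create overlap, so it is no test of these 3 genes. The count was then 3 to 4, and 5.37% to 7.57% of all genes lay below in this way.

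MT2A, MT1F, MT4 and MT1H stayed below 0 and MT1E above 0 under every alternative run. MT2A ranged from -1.14 without siATF4 replicate 3 to -0.40 without siATF4 replicate 1, and MT1H from -0.58 to -0.14. With each array left out, MT3 ranged from -0.18 to 0.12, MT1M from -0.24 to 0.04, MT1B from -0.32 to 0.04, MT1G from -0.47 to 0.28 and MT1X from -0.41 to 0.02. The cause of these reversals was not tested. Within replicate numbers MT1X was below 0 each time, at -0.18, -0.21 and -0.21, while MT3, MT1M, MT1B and MT1G ran both ways. The filter on the dimmest 33% of genes left out MT1H, MT1M, MT1B and MT3. Low signal limits those 4 genes.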

Other observations

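Among other zinc-binding genes, CA2, the cytosolic carbonic anhydrase and a zinc enzyme, was lower on every siATF4 array. It read 5.38, 5.27 and 4.94 in siATF4 cells, against 6.60, 6.12 and 5.60 in siCTRL cells, a difference of -0.91 (SE 0.26, adjusted limma p 1.00), and lay between -1.16 and -0.67 with each array left out. CA2 was the 1 gene without overlap among 9 measured zinc-binding and calgranulin genes, of which 4 were lower and 5 higher. Of all genes 2.59% lay below in this way. The other carbonic anhydrase genes of the list differed by 0.00 to 0.05. The zinc-binding calgranulin genes S100A8 and S100A9, of granulocytes and monocytes, did not separate the groups. S100A9 read 4.81, 6.45 and 4.81 in siATF4 cells, against 7.23, 6.52 and 4.91 in siCTRL cells. S100A8 was lowest at replicate 3 in both groups, at 5.60 with siATF4 and 5.77 with siCTRL, the number at which MT1X was highest.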
